A study of Mus musculus with 8 samples.

Results

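Insulin receptor, phosphatidylinositol 3-kinase (PI3K) and Akt signalling was examined in mouse pancreatic islets through 48 member genes, which were given as a list of genes and not picked by a threshold on their values. The list runs from the receptors (Insr, Insrr) and their adaptors through the PI3K subunits, Akt and related kinases to the targets FoxO, GSK3 and mTOR, with the catalytic subunits of AMPK. Every probe set of the array annotated to exactly 1 of these genes was taken, which gave 121 of 45101 probe sets and 46 of the 48 genes. Pik3c2b and Rps6kb1 had no such probe set listed. Of the 121 probe sets, 95 were retained by a filter on low intensity, and they stood for 43 genes among the 12299 genes retained in all. Irs3, an adaptor mainly of rodent fat cells, Sh2b2, an adaptor of receptor tyrosine kinases, and Socs1, an inhibitor of cytokine and insulin receptor signalling, had listed probe sets but none was retained.

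Male C57BL/6J mice from the Jackson strain, which carries the natural deletion in Nnt in both groups, were fed normal chow (NC) or a diet with 45 kcal% fat (HF) from weaning at 4 weeks of age. The labels give 12 weeks on the diet, and the methods a slightly longer time. Islets were released with collagenase, separated on a density gradient and picked by hand, and the islets of a pair of mice were pooled into each sample. There were 4 NC samples (1, 2, 4 and 5) and 4 HF samples (21, 22, 23 and 24), each on 1 array, so n counts pools.

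Insulin binding turns on the tyrosine kinase of its receptor, which phosphorylates insulin receptor substrate proteins. These recruit PI3K, whose lipid product brings Akt to the membrane, where Pdpk1 and the mTOR complex that holds Rictor activate it. Akt then restrains FoxO transcription factors, GSK3 and the TSC complex, and restraint of the TSC complex activates mTOR. In beta cells the pathway is known for its part in growth and survival, with Irs2 and Foxo1 among its best studied members.

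Values are the authors' background-adjusted and normalized intensities, for which the median over all probe sets was between 13.0 and 13.8 in the 8 samples. The correlation of log2 intensities between arrays was between 0.986 and 0.997, at least 0.992 within a diet and at most 0.990 between diets, and no array stood apart from its diet. Whole islets hold several cell types, and in bulk RNA fewer cells of a type and less RNA per cell cannot be told apart. The summed level of beta cell markers, given as a mean of log2 intensities, was between 13.40 and 13.47 in NC and between 13.45 and 13.60 in HF, and 0 of 16 markers passed the test in limma (4 higher and 0 lower at an unadjusted p under 0.05). All 11 of 11 fibroblast and stellate cell markers were lower in HF, with a mean log2 level of 8.76 to 9.25 in NC and 6.07 to 7.13 in HF. Of the other lists, 4 of 6 smooth muscle, 3 of 11 endothelial, 4 of 6 Schwann cell, 6 of 11 macrophage, 5 of 7 B and plasma cell, 1 of 2 T and NK cell and 1 of 7 duct cell markers were also lower. Of all genes 4.8% were called lower. Without the fold limit, 8 of 11 endothelial and 8 of 11 macrophage markers were lower. Every marker of these lists had a negative log2 fold change, except in the duct list, where 5 of 7 did. Of 9 acinar cell markers 0 were called (1 higher and 1 lower at an unadjusted p under 0.05). Their mean log2 level was at least 13.57 in every NC sample and at least 13.72 in every HF sample. In both diets this lay above the level of the beta cell markers. Of the alpha cell markers 2 of 6 were lower (Irx2 and Sstr2), with a list median of -0.53 and a log2 fold change of 0.01 for Gcg. Of the delta and PP cell markers 0 of 5 were called (4 lower at an unadjusted p under 0.05), and all 5 had a negative log2 fold change. The smallest value on any array was 1.33, so a marker could not be at 0, and being listed does not show that its cell type was detected. Some duct cell markers were dim, with means for Sox9 of 12.2 (NC) and 11.9 (HF) and for Cftr of 11.2 (NC) and 11.3 (HF). The part of these cell types in the results that follow was not tested.

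Few members differed between the diets. A probe set was counted as higher or lower at an adjusted p under 0.05 in limma with at least a 1.5-fold change. In HF islets 3 of the 95 retained member probe sets were higher, those of Pik3r1, Gsk3b and Prkaa2 at 1.69-, 1.59- and 1.68-fold, beside 0.644% of all retained probe sets. A single member probe set was lower, that of Sgk1 at 1.51-fold, beside 3.06% of all. In either direction this was 4.21% of the member probe sets and 3.7% of all. The adjusted p alone, without the fold limit, added Pdpk1 to the higher ones and gave 5 of 95 member probe sets (5.26%) beside 6.16% of all. At an unadjusted p under 0.05 there were 16 member probe sets, or 16.8%, beside 20.8% of all. The intensities of the diets did not overlap for 11 member probe sets, or 11.6%, beside 14.7% of all. The median log2 fold change of HF over NC was 0.02 over the member probe sets and 0.02 over all retained ones, with 55 members above and 40 below 0. The 91 other member probe sets had log2 fold changes between -0.55 and 0.50, and 80 of them were within 0.25 of 0.

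**Figure D1:**
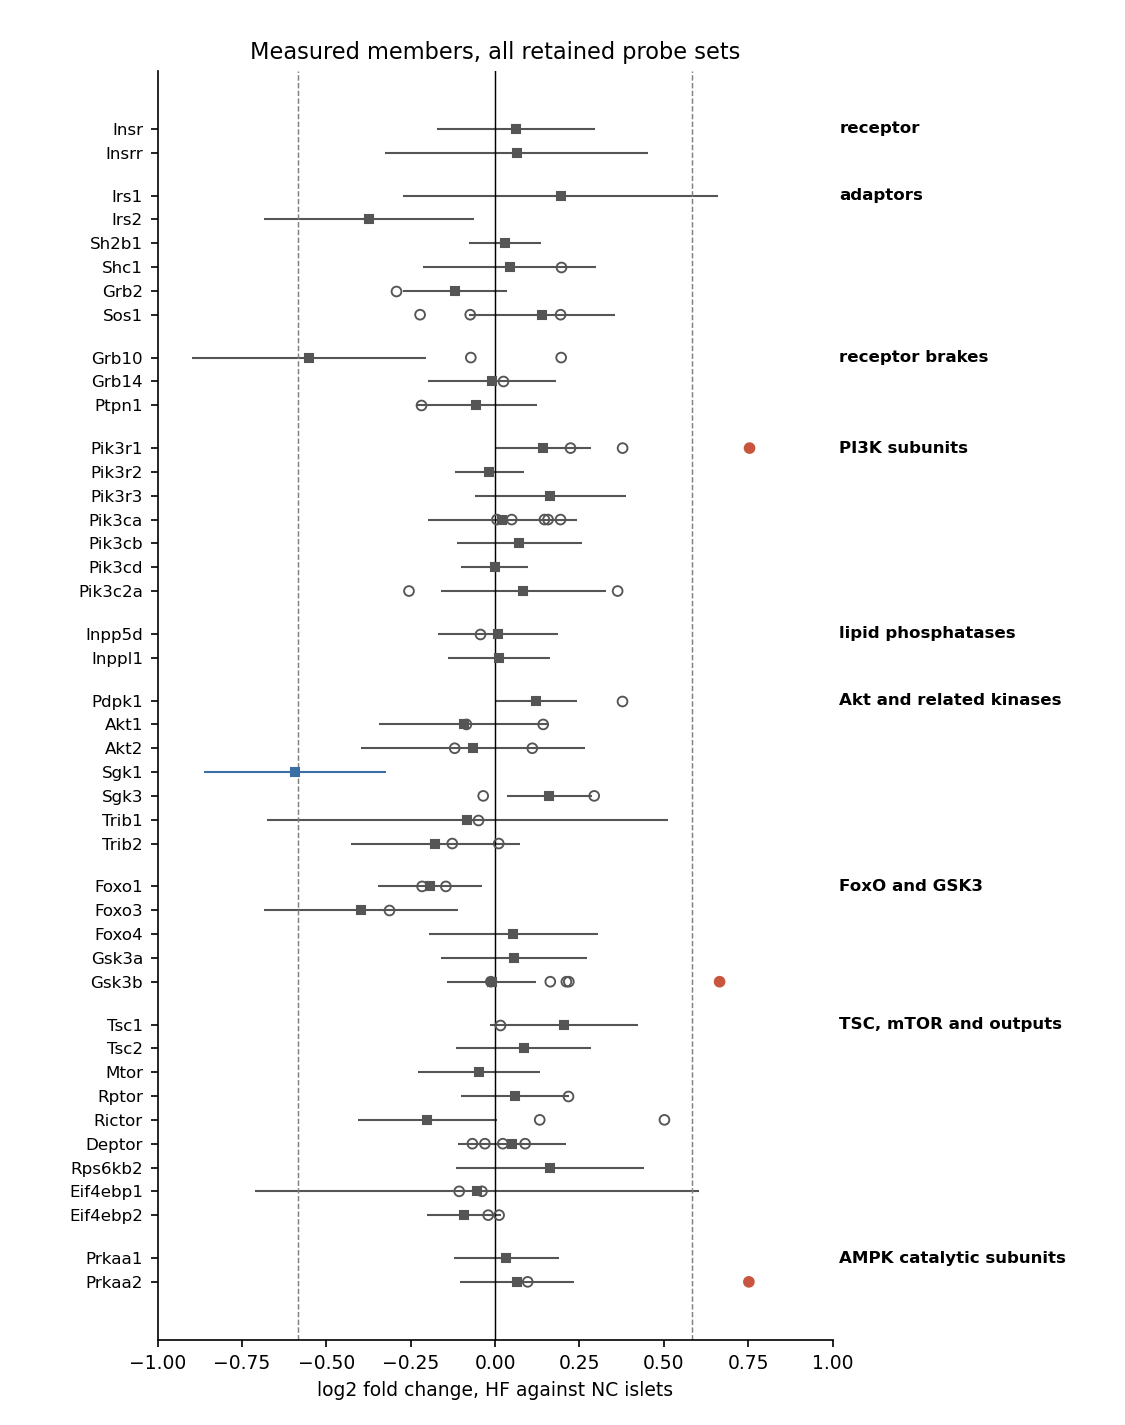
Log2 fold change of HF over NC (horizontal axis) for the 95 retained probe sets of the 43 member genes, grouped by role, where squares with 95% intervals are the brightest probe set of a gene, circles its other probe sets, filled colours the called ones, and dashed lines the 1.5-fold limits. Most points lie near 0, and the 4 probe sets past both limits are those of Pik3r1, Gsk3b, Prkaa2 and Sgk1.

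When each gene was read through its brightest retained probe set, the one with the highest mean, 0 of 43 members were higher in limma, beside 0.537% of all genes, and 1 of 43, Sgk1, was lower, beside 4.8% of all. The methods' t-test, which the study names for group comparisons in general and not for its arrays, also gave 0 higher genes after adjustment. At an unadjusted p under 0.05 there were 3 higher and 5 lower members in limma, together 18.6% beside 23% of all genes. The higher probe sets of Pik3r1, Gsk3b and Prkaa2 were thus each a dimmer probe set of its gene.

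At the head of the pathway, Insr, the insulin receptor, had intensities of 373, 441, 457 and 433 in NC 1, 2, 4 and 5 and of 404, 526, 439 and 415 in HF 21, 22, 23 and 24. The groups overlapped, and the highest value was that of HF 22. The log2 fold change was 0.06 with a 95% interval of -0.17 to 0.30, so that the interval reached neither a 1.5-fold rise nor a 1.5-fold fall. Insrr, the receptor related to the insulin receptor, had a log2 fold change of 0.06 (interval -0.32 to 0.45).

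Irs1 and Irs2 are the main substrates that the receptor phosphorylates. Irs1 was at 389, 435, 468 and 419 in the 4 NC samples and at 568, 370.2, 385 and 702 in the 4 HF samples. The spread lay in HF, where samples 21 and 24 were above every NC sample and samples 22 and 23 below every NC sample. Its log2 fold change was 0.19 with an interval of -0.27 to 0.66. Irs2 was at 695, 614, 548 and 671 in NC and at 561, 569, 433 and 402 in HF. HF 23 and 24 were under all NC samples, while HF 21 and 22 were above NC 4. The log2 fold change of Irs2 was -0.37 (standard error 0.14, interval -0.68 to -0.06), and the adjusted p was 0.162.

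The other adaptors did not pass the test on any of their retained probe sets. Sh2b1, an adaptor that enhances receptor signalling, had a log2 fold change of 0.03, and Shc1, Grb2 and Sos1, which link receptors to Ras, had log2 fold changes of 0.04, -0.12 and 0.14 on their brightest probe sets. Among the brakes on the receptor, Grb14, which binds and inhibits it, and Ptpn1, the phosphatase that removes its tyrosine phosphates, had log2 fold changes of -0.01 and -0.06. Grb10, an inhibitor of the receptor and a substrate of mTOR, had intensities of 1154, 1180.3, 1352 and 1293 in NC and of 771, 1156, 833 and 694 in HF on its brightest probe set. HF 21, 23 and 24 were well below all NC samples, and HF 22 was level with NC 1. The log2 fold change was -0.55 (standard error 0.15), and the adjusted p was 0.0750. Without HF 22 it was -0.70 with an adjusted p of 0.00814, and the probe set then counted as lower. Leaving out any other sample gave an adjusted p between 0.125 and 0.173 in limma. The dimmer Grb10 probe sets 1430164_a_at and 1425457_a_at had log2 fold changes of -0.07 and 0.20.

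Of the PI3K subunits, Pik3r1 encodes the alpha regulatory subunit, which holds the catalytic subunit at the phosphorylated adaptor. Its probe set 1425514_at was at 362, 375, 473 and 436 in the NC samples and at 664, 689, 668 and 741 in the HF samples. All HF samples were above all NC samples, and the lowest HF value was well above the highest NC value. The mean intensity was 411 ± 52.2 on NC and 690.4 ± 35.5 on HF (± SD over the 4 pools), for a difference of 0.75 in log2 (standard error 0.09, interval 0.54 to 0.97, adjusted p = 0.00417 from limma). This probe set counted as higher with any sample left out, with adjusted p between 0.00426 and 0.0177. The smallest p that an exact two-sided permutation test over 4 against 4 samples can give is 0.0286, and it was reached here.

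The 3 other retained Pik3r1 probe sets gave smaller differences. The brightest, 1438682_at, was at 1216, 1262, 1092 and 1192 in NC and at 1320.3, 1323, 1368 and 1242 in HF. HF 24 fell between NC values, so the groups overlapped. Its log2 fold change was 0.14 (interval 0.00 to 0.28) with an adjusted p of 0.237. The other pair, 1425515_at and 1451737_at, had log2 fold changes of 0.22 and 0.38 with adjusted p of 0.147 and 0.136, and on both the HF samples were all above the NC samples. All 4 retained Pik3r1 probe sets thus had a positive log2 fold change, of which 1 passed the test. The unadjusted p in limma was 0.0490 for 1438682_at, 0.0205 for 1425515_at and 0.0178 for 1451737_at.

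**Figure D2:**
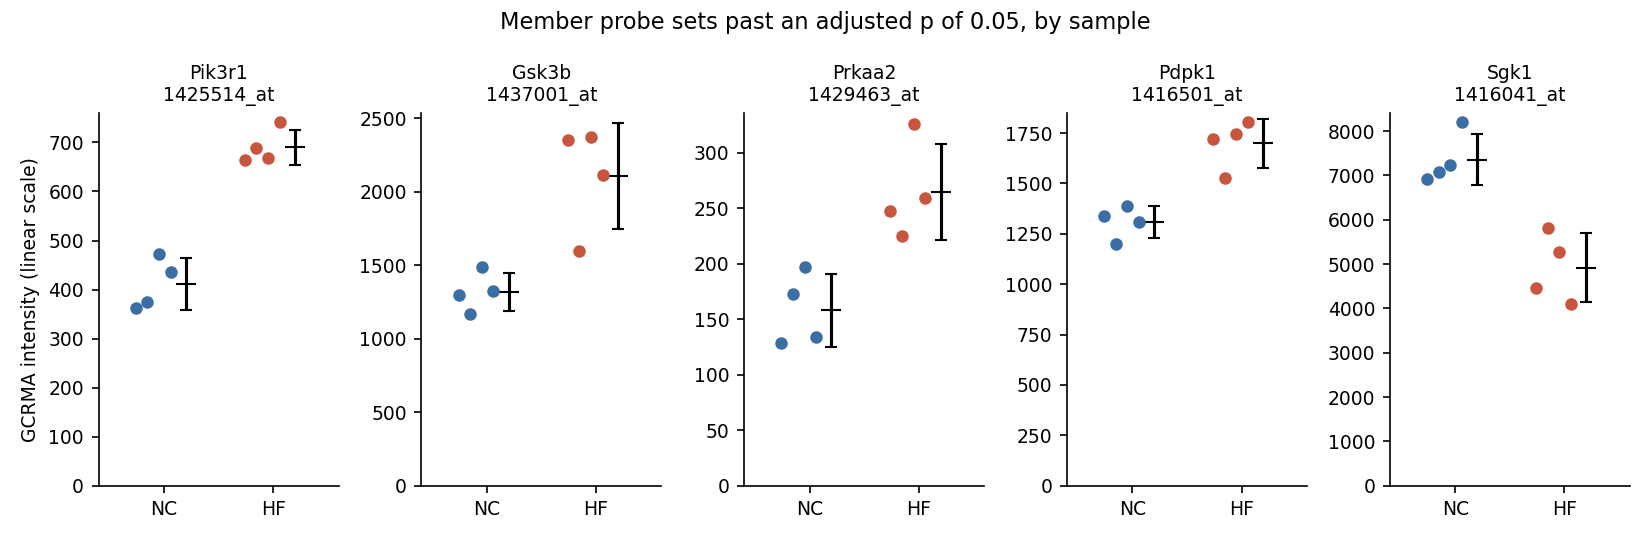
Intensity (vertical axis, linear scale) by sample on NC and HF (4 points per diet, with the mean and SD beside them) for the probe sets of Pik3r1, Gsk3b, Prkaa2, Pdpk1 and Sgk1 that passed an adjusted p of 0.05. In each panel the HF points lie all above or, for Sgk1, all below the NC points.

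Pik3r1 has 2 transcription starts listed in RefSeq on mouse chromosome 13, and the 250 bases before each are printed because the regulatory subunit comes in a long form and shorter forms from separate starts. The first window holds 76.4% G and C and the second 42.4%, beside a median of 52.4% over all 32851 windows. Letters are in lower case because none of the 5 motifs searched (listed with Sgk1) was found in either window, on either strand. Which of the transcripts each probe set reads was not determined here.
Pik3r1, GRCm38.p6 chr13:101768218-101768467, minus strand: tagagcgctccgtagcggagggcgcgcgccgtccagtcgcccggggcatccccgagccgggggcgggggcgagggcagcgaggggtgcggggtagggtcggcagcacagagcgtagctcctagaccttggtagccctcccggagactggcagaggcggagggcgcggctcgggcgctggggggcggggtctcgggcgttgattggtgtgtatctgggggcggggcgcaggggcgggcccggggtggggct
Pik3r1, GRCm38.p6 chr13:101692631-101692880, minus strand: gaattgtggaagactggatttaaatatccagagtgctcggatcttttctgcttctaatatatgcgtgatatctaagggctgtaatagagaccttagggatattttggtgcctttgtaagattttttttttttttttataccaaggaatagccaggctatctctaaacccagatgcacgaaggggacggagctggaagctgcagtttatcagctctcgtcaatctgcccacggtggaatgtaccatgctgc

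Pik3ca, the alpha catalytic subunit, was at 1043, 1226, 1176 and 1212 in NC and at 1221, 1054, 1369 and 1097 in HF on its brightest probe set. The groups overlapped over most of their range, and the log2 fold change was 0.02 (interval -0.20 to 0.24). All 6 retained Pik3ca probe sets had log2 fold changes between 0.01 and 0.19. The smallest was on 1440054_at, whose mean intensity of 8.93 in NC was near the lowest value retained, 8.82. Pik3cb and Pik3cd, the beta and delta catalytic subunits, were read by 1 dim probe set each, with mean NC intensities of 12.2 and 38.0 and log2 fold changes of 0.07 and 0.00. The regulatory subunits Pik3r2 and Pik3r3 had log2 fold changes of -0.02 and 0.16. Pik3c2a, a class II PI3K, had 0.08 on its brightest probe set and 0.36 on 1425862_a_at, where all HF samples were above all NC samples and the adjusted p was 0.0814. The lipid phosphatases Inpp5d and Inppl1, which remove a phosphate from the product of PI3K, had log2 fold changes of 0.01 and 0.01.

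Pdpk1, the kinase that phosphorylates Akt, Sgk and other kinases in their activation loop, was read by 2 retained probe sets. On 1416501_at it was at 1339.7, 1199, 1388 and 1308 in NC and at 1719, 1527, 1745 and 1804 in HF. All HF samples were above all NC samples. The mean intensity was 1309 ± 80.4 on NC and 1699 ± 120.1 on HF (± SD over the 4 pools), and the log2 fold change was 0.38 (standard error 0.07, interval 0.21 to 0.54, adjusted p = 0.0231 from limma). This lay under the fold limit, and leaving out any of NC 1, 2 and 5 or HF 21, 23 and 24 raised the adjusted p to between 0.0526 and 0.0679. The brighter 1415729_at was at 1811, 1755, 1913 and 1745 in NC and at 1989, 1966, 1885 and 2017 in HF, with HF 23 below NC 4. Its log2 fold change was 0.12 (interval 0.00 to 0.24, adjusted p = 0.235).

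Akt1 and Akt2 are the kinases through which most effects of PI3K pass. Akt1 was at 3503, 3383, 2695 and 2961 in NC and at 3080.5, 2491, 3044 and 3126 in HF. HF 22 lay apart from the 3 other HF samples, and these lay within the range of NC. The log2 fold change was -0.09 (interval -0.34 to 0.16). Akt2 was at 469, 493, 379.8 and 363 in NC and at 411, 333, 493 and 393 in HF. The groups overlapped, and the log2 fold change was -0.07 (interval -0.40 to 0.27). Trib1 and Trib2, pseudokinases known to bind Akt, had log2 fold changes of -0.08 and -0.18.

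Sgk1, a kinase related to Akt that is activated through the same lipid signal and whose transcription is known to respond to glucocorticoids, was the member lower in HF. It was at 6909.5, 7079.9, 7247 and 8205 in NC and at 4460.4, 5813, 5283 and 4102 in HF. Every HF sample was below every NC sample, with HF 22 the nearest to NC. The mean intensity was 7360.4 ± 579.6 on NC and 4914 ± 777 on HF (± SD over the 4 pools), for a difference of -0.59 in log2 (standard error 0.12, interval -0.86 to -0.32, adjusted p = 0.0248 from limma). The limits were close. The fall of 1.51-fold lay just past the fold limit. Leaving out any of NC 1, 2, 4 and 5 or HF 21 and 24 ended the call among probe sets, with adjusted p between 0.0542 and 0.0731. Adjusted over genes by the brightest probe set, the adjusted p of Sgk1 in limma was 0.0162. The count of lower member genes by that reading was unchanged in 4 of 8 fits with a sample left out. Sgk3, a close relative that is tied to endosomes, had a log2 fold change of 0.16 on its brightest probe set (interval 0.03 to 0.29, adjusted p = 0.140).

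Scaling each array to the beta cell markers gave Sgk1 a log2 fold change of -0.68 with an adjusted p of 0.0293. The same scaling moved the median of all retained probe sets to -0.07. Other settings ended the call of Sgk1 among probe sets, though with no filter 1 member gene stayed lower by its brightest probe set. Scaling on the median of the retained probe sets gave -0.58 (adjusted p = 0.0321), under the fold limit, and the adjusted p was 0.0516 with no filter and 0.0715 in the methods' t-test. The fibroblast markers given earlier fell in the same samples in which Sgk1 fell, with a median log2 fold change of -2.44 over the list, and their part in the result for Sgk1 was not tested.

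RefSeq lists 6 transcription starts for Sgk1. The window of 250 bases before the fifth is printed because it is 1 of only 3 among 32851 windows (0.00913%) that hold the palindromic glucocorticoid response element, an inverted repeat around a spacer of any bases. The first capitals mark an E-box, CACGTG, and the second mark that element.
Sgk1, GRCm38.p6 chr10:21993640-21993889, plus strand: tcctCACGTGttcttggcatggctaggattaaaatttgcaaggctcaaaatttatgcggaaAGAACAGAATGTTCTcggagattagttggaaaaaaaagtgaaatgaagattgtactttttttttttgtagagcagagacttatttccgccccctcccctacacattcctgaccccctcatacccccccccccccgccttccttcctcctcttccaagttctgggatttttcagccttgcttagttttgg

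Of the 48 members, 40 had an entry in the promoter table, with 60 windows. The motifs, searched on both strands, were the glucocorticoid response element, the E-box CACGTG, the FoxO core GTAAACA, the insulin response element CAAAACA and the cAMP response element TGACGTCA. The E-box was in 3 of 60 member windows (Irs1, Irs2 and Sgk1) and in 6.02% of all. The insulin response element was in 3 of 60 (Irs1, Irs2 and Sh2b1) and in 5.56% of all. The FoxO core was in 1 of 60 (Akt1) and in 3.17% of all, and the cAMP response element was in 0 of 60 and in 1.55% of all. The windows of Gsk3b and Prkaa2 held none of these letters. The matches are a description of the letters and not of binding.

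Foxo1, a transcription factor that Akt keeps out of the nucleus, was at 1373, 1658, 1594 and 1559 in NC and at 1356, 1319, 1390.5 and 1334 in HF on its brightest probe set. Only HF 23 was above NC 1, and the HF values were close together. The log2 fold change was -0.19 (interval -0.35 to -0.04) with an adjusted p of 0.148, and the 3 retained probe sets lay between -0.22 and -0.15. Foxo3, its relative, was at 1376, 1539.9, 1766 and 1621 in NC and at 1330.5, 948, 1312 and 1219 in HF, with no overlap between the groups. Its log2 fold change was -0.40 (interval -0.68 to -0.11), and the adjusted p was 0.113. Foxo4 had a log2 fold change of 0.05.

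Gsk3b, a kinase that inhibits glycogen synthesis and is itself inhibited by Akt, had 6 retained probe sets. On 1437001_at it was at 1299, 1169, 1485 and 1324 in NC and at 2351, 1598, 2376 and 2115 in HF. The HF samples were all above the NC samples, HF 22 by the smallest margin. The mean intensity was 1319 ± 129.9 on NC and 2110.1 ± 361 on HF (± SD over the 4 pools), and the log2 fold change was 0.67 (standard error 0.14, interval 0.35 to 0.98, adjusted p = 0.0285 from limma). Leaving out any of NC 1, 2 and 5 or HF 21, 23 and 24 ended the call, with adjusted p between 0.0639 and 0.0838. So did no filter (adjusted p = 0.0615), the methods' t-test (adjusted p = 0.0813) and scaling on the beta cell markers, where the log2 fold change was 0.57, under the fold limit. The brightest probe set, 1454958_at, had means of 1849 ± 64.0 and 1838 ± 97.3 and a log2 fold change of -0.01 (interval -0.14 to 0.12). The 4 dimmer ones had log2 fold changes between -0.01 and 0.22, and none passed the test. Gsk3a, the related kinase, had a log2 fold change of 0.06.

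Downstream, no retained probe set of the TSC complex, mTOR or its outputs passed the test in limma, and 0 of the 9 genes had an unadjusted p under 0.05 on the brightest probe set. Mtor, the kinase of both mTOR complexes, was at 636, 767, 652 and 707 in NC and at 695, 608, 702 and 664 in HF. The groups overlapped, and the log2 fold change was -0.05 (interval -0.23 to 0.13). Tsc1 and Tsc2, which hold mTOR inactive, had log2 fold changes of 0.21 and 0.09. Rptor and Rictor, which define the 2 mTOR complexes, had log2 fold changes of 0.06 and -0.20. Deptor, an mTOR inhibitor, had log2 fold changes between -0.07 and 0.09 on 5 retained probe sets. Rps6kb2, a ribosomal S6 kinase, had 0.16, and Eif4ebp1 and Eif4ebp2, the repressors of translation that mTOR phosphorylates, had -0.05 and -0.09.

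Prkaa1 and Prkaa2 encode the catalytic subunits of AMPK, a sensor of cellular energy that opposes mTOR. On 1429463_at, Prkaa2 was at 129, 172, 197 and 134 in NC and at 247, 225, 326 and 259 in HF. All HF samples were above all NC samples. The mean intensity was 158 ± 32.6 on NC and 264 ± 43.3 on HF (± SD over the 4 pools), and the log2 fold change was 0.75 (standard error 0.17, interval 0.37 to 1.13, adjusted p = 0.0368 from limma). Leaving out any of NC 1, 2 and 5 or HF 21, 23 and 24 ended this call too, with adjusted p between 0.0686 and 0.0961. So did no filter (adjusted p = 0.0809), the methods' t-test (adjusted p = 0.0993) and scaling on the beta cell markers (0.66 in log2, adjusted p = 0.0590). The brightest Prkaa2 probe set, 1434766_at, had a log2 fold change of 0.07 (interval -0.10 to 0.24). The dim 1429464_at, with mean intensities of 9.47 in NC and 10.1 in HF, had 0.10. Prkaa1 had a log2 fold change of 0.03 (interval -0.12 to 0.19).

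The members that rose passed the test on only 1 of several probe sets. The ratio of each probe set to the brightest of its gene was therefore compared between the diets in limma over all 9718 such ratios. This comparison was chosen after the values had been seen. Of 52 member ratios 2 passed an adjusted p of 0.05, beside 1.4% of all ratios. For Gsk3b, the ratio of 1437001_at to 1454958_at was 0.611 to 0.797 in NC and 0.919 to 1.31 in HF, a difference of 0.67 on the log2 scale (standard error 0.13, adjusted p = 0.0479). For Grb10, the brightest 1425458_a_at had a log2 fold change of -0.55 and the dim 1425457_a_at had 0.20 (interval -0.15 to 0.55). The ratio of the dim to the brightest was 0.0142 to 0.0235 in NC and 0.0288 to 0.0345 in HF (difference 0.75, adjusted p = 0.0491). Neither is firm, since leaving out a sample left at most 1 of these calls. Gsk3b passed with HF 22 left out and Grb10 with NC 1 left out, and neither passed without any other sample.

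The same difference was 0.61 for Pik3r1 1425514_at (adjusted p = 0.0674), 0.69 for Prkaa2 1429463_at (adjusted p = 0.107) and 0.25 for Pdpk1 1416501_at (adjusted p = 0.150). For Pik3r1 the ratios were 0.297 to 0.433 in NC and 0.488 to 0.597 in HF, without overlap. Among the 26 members with at least 2 retained probe sets, 13 had the same sign of log2 fold change on all of them.

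**Figure D3:**
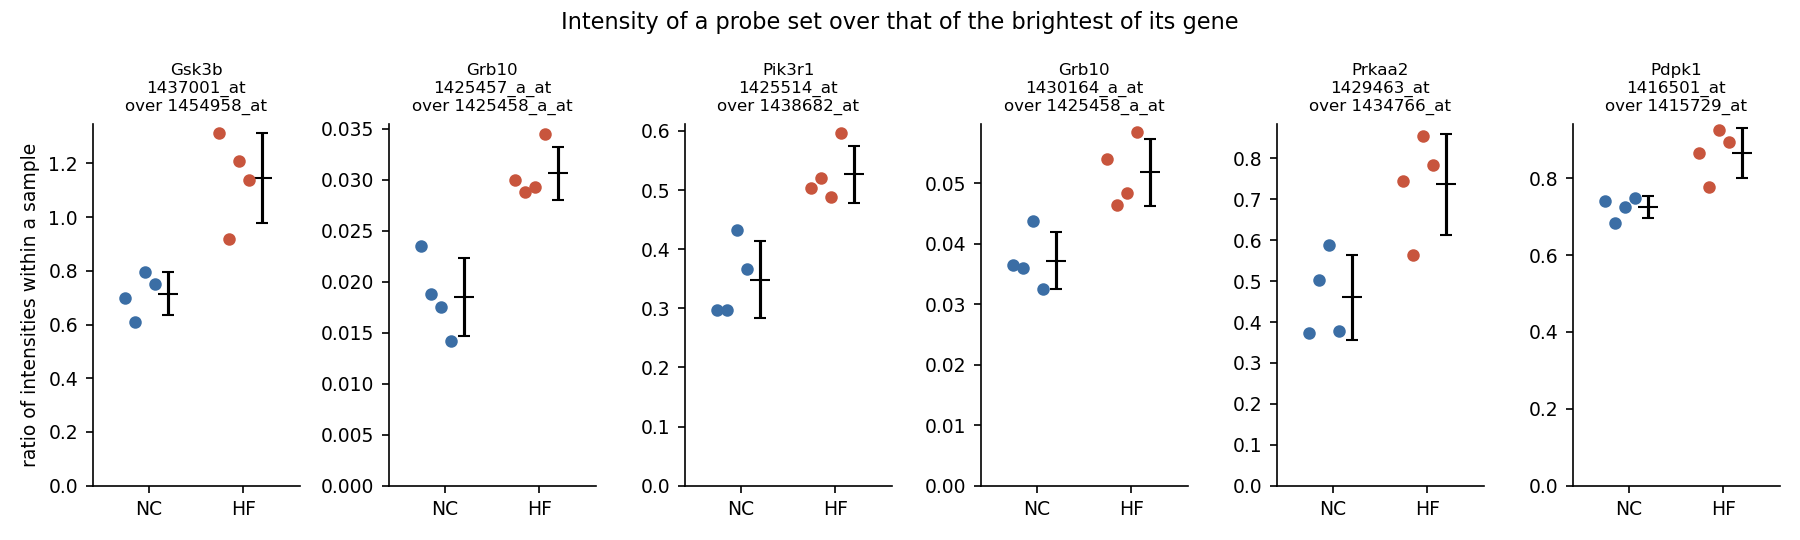
Ratio of the intensity of a dimmer probe set to that of the brightest probe set of its gene, by sample on NC and HF (4 points per diet, with the mean and SD beside them), for 6 probe sets of Gsk3b, Grb10, Pik3r1, Prkaa2 and Pdpk1. The HF ratios of Gsk3b 1437001_at lie between 0.919 and 1.31, above the NC ratios of 0.611 to 0.797.

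Samples on the same diet varied little for most members. The SD of log2 intensity within a diet had a median of 0.129 over the members' brightest probe sets and of 0.132 over all genes. It was largest for Eif4ebp1, at 0.46, followed by Trib1 at 0.42 and Irs1 at 0.33, and smallest for Pik3cd at 0.02 and Pik3r2 at 0.03. The Pik3cd probe set was dim, with means of 38.0 for both diets. None of the other Pik3cd probe sets was retained, and the brightest of them averaged 6.36 on NC. The small SD of Pik3cd thus does not by itself show steady expression, and whether it reflects background was not tested. Eif4ebp1 was at 773, 931, 1364 and 836 in NC and at 854, 1578, 799 and 658 in HF. NC 4 and HF 22 were the highest of their diets, and they were so on all 3 retained Eif4ebp1 probe sets. Trib1 was at 1194, 1298, 912 and 984 in NC and at 980.2, 846, 1761 and 758 in HF, with HF 23 far above the others.

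**Figure D4:**
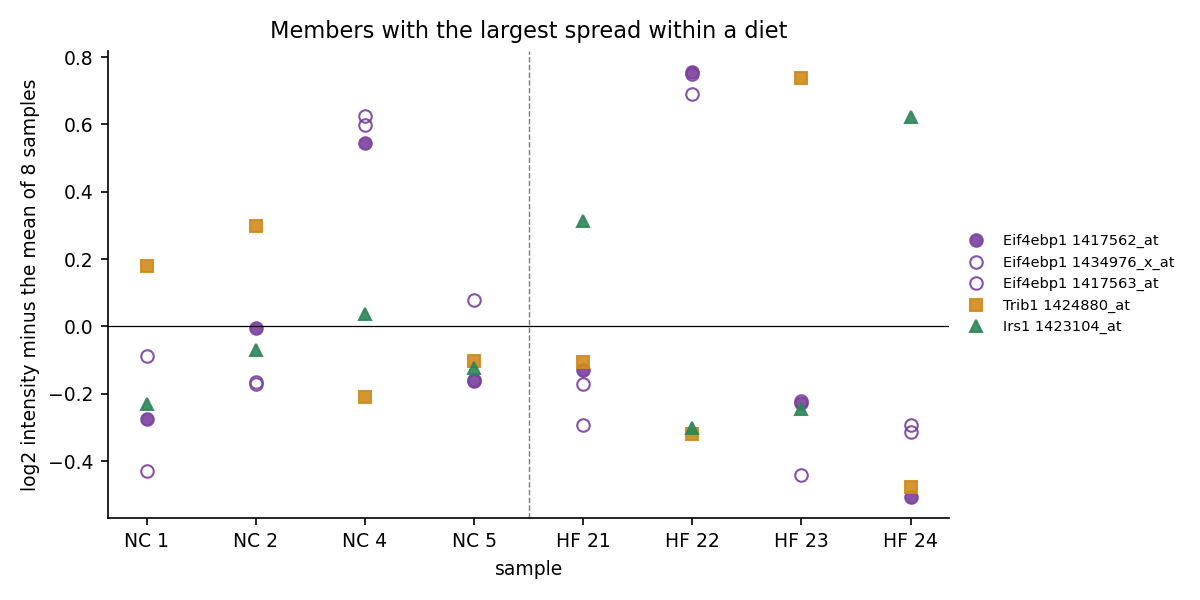
Log2 intensity minus its mean over the 8 samples (vertical axis) in each sample (horizontal axis) for the 3 retained probe sets of Eif4ebp1 and the brightest of Trib1 and Irs1. Eif4ebp1 is highest in NC 4 and HF 22, Trib1 in HF 23 and Irs1 in HF 24.

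The 26 member probe sets that the filter removed had mean intensities of at most 12.1 in either diet. In a fit over all probe sets their log2 fold changes were between -0.08 and 0.49, the latter for Rictor 1441753_at.

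Other genes of the pathway and of its neighbours were read by their brightest probe sets, from lists chosen with earlier results of these data known. Their counts stand beside shares over all genes of 4.8% called lower and 0.537% called higher, and of 14.3% lower and 8.69% higher at an unadjusted p under 0.05. Of 33 other insulin and PI3K pathway genes, 2 fell, 0 rose and 31 did not pass the test in limma (4 higher and 3 lower at an unadjusted p under 0.05). The 2 were Socs2, a feedback inhibitor of growth hormone signalling, with intensities of 1588 ± 235 in NC and 866 ± 203 in HF (log2 fold change -0.89, adjusted p = 0.0164), and Gab1, an adaptor that recruits PI3K to growth factor receptors, at 154 ± 5.37 and 93.1 ± 17.4 (-0.74, adjusted p = 0.00687). Socs3, Ptprf and Pde3b, the brightest of the rest, had log2 fold changes of -0.28, 0.08 and 0.04.

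Of 25 other mTOR genes 0 passed in limma (2 higher and 1 lower at an unadjusted p under 0.05), and the bright Ddit4, Rheb and Lamtor1 had log2 fold changes of 0.13, 0.05 and 0.03. Of 8 genes for beta and gamma subunits of AMPK and the kinases that act on it 0 passed, none of them with an unadjusted p under 0.05. The bright Cab39, Stk11 and Prkag2 had log2 fold changes of -0.02, -0.07 and -0.02.

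In the Ras, Raf and Erk list, 2 of 15 genes fell and 0 rose (6 lower and 0 higher at an unadjusted p under 0.05), and the median log2 fold change was -0.09. Both are inhibitors of the pathway, Spry1 with a log2 fold change of -0.77 (adjusted p = 0.00879) and Spred1 with -0.64 (adjusted p = 0.00152). The kinases and exchange factors Sos2, Rps6ka3 and Araf had log2 fold changes of -0.14, -0.01 and 0.04.

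Of 17 genes known as FoxO targets, 2 fell and 0 rose (7 lower and 0 higher at an unadjusted p under 0.05), with a median log2 fold change of -0.39 beside 0.00 over all genes. Pdk4, which inhibits pyruvate dehydrogenase, was at 898 ± 111 in NC and 401 ± 76.6 in HF (log2 fold change -1.18, adjusted p = 0.00302). Pmaip1, which promotes apoptosis, had a log2 fold change of -1.08 (adjusted p = 0.0294). Cited2, Cdkn1b and Sesn1, the brightest of the rest, had log2 fold changes of -0.39, 0.07 and -0.55, and the adjusted p of Sesn1 was 0.0285, under the fold limit. Over the lists together 6 of 96 genes fell and 0 rose, with 16 lower and 6 higher at an unadjusted p under 0.05 and a median of -0.02. The fall of the fibroblast, vascular and immune cell markers stood in the same samples, and its part in these results was not tested.

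**Figure D5:**
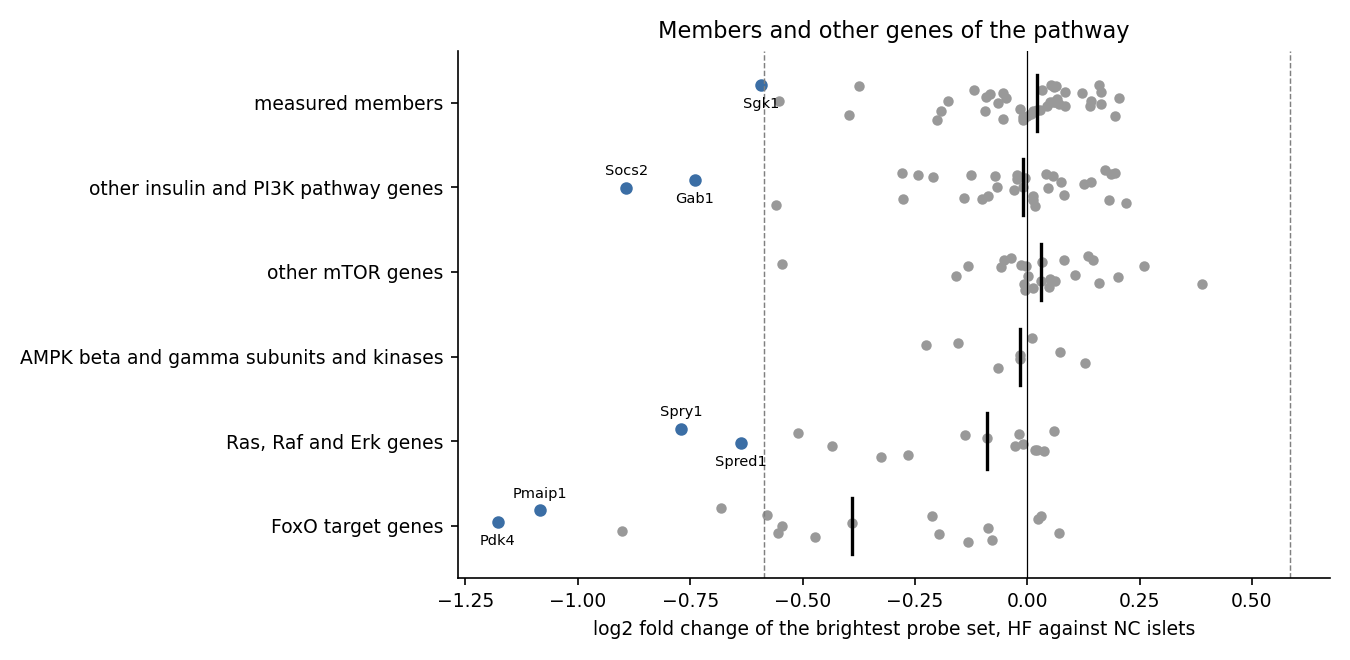
Log2 fold change of HF over NC for the genes of each pathway list, 1 point per gene read by its brightest probe set, where black bars are medians, blue points called genes and dashed lines the 1.5-fold limits. The FoxO target list has a median of -0.39, and the member genes have a median of 0.02.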

How the data were processed

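RNA of islets from 4 NC and 4 HF pools was measured on Affymetrix mouse 430 arrays. The authors summarised the probe sets with GCRMA, and the deposited values are linear intensities with the background adjustment and the normalization between arrays done. They were taken to log2 here. The authors' present calls were not used. As many probe sets as the study tested were retained, ranked by the third-highest of the 8 intensities regardless of diet, and the lowest had 8.82. HF and NC were compared with limma 3.58.1 in R 4.3.3 (lmFit and eBayes) over all retained probe sets, with Benjamini-Hochberg adjustment. A probe set was called at 1.5-fold or more with an adjusted p under 0.05. Intervals are 95%, standard errors are limma's, and the number of arrays limits the precision. A gene's brightest probe set is the retained one with the highest mean log2 value, and gene counts were adjusted over genes. The 2 probe sets annotated to a member and to another gene were left out.

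Values in every sample were given for called probe sets, for those past the adjusted p alone, and for the brightest probe sets of Insr, Irs1, Irs2, Pik3r1, Pik3ca, Akt1, Akt2, Foxo1, Mtor and Pdpk1. From the pathway lists, called genes and up to 3 others by highest mean were named. Other named values were chosen after they were seen. The members and lists were chosen with earlier results of these data known. The sequences are RefSeq's (GRCm38.p6). The scripts were tested on simulated data. Alternatives covered the filter, scaling, variance model, test, thresholds, choice of probe sets and each sample left out. SAM, used in the study, was not run.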

Additional observations from a re-analysis of the deposited data

Results flagged for a closer look

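Akt1 was at an intensity of 2491 in HF 22, apart from the other HF samples at 3044 to 3126. The gap was 0.870 of the range of the 4 HF samples, above Dixon's 95% limit for 4 samples. This was 1 of 30 groups examined, and chance alone passes about 1 in 20.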

How the results depend on the processing

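The call of the second-brightest Pik3r1 probe set held under every alternative that tests single probe sets, while Pik3r1 was not called by its brightest probe set or by the mean of its probe sets, where 0 members were higher. In the main setting 3 of 43 members had a higher probe set and 1 a lower one, beside 1.07% and 4.66% of all genes. With no filter, member probe sets fell from 3 higher and 1 lower to 1 and 0, and genes with such a probe set to 1 and 0 as well. The shares over all probe sets fell too, to 0.188% higher and 1.27% lower. Shares moved with the setting, so a count given without its share is not a result about the members. The methods' t-test after adjustment also gave 1 higher and 0 lower probe sets, 1 and 0 genes, 0 lower genes by the brightest probe set and 0 shifted ratios. Scaling on beta cell markers left 1 higher probe set of 1 gene, beside 0.386% of all probe sets. It gave 2 of 43 lower genes by the brightest probe set, beside 6.33% of all genes. Sample weights also gave 2 such genes. Scaling on the median, and the fold of linear means, each left 0 lower probe sets, 0 genes with a lower probe set and 0 lower genes by the brightest probe set. With scaling on the median, 3.02% of all probe sets and 4.71% of all genes were lower. The ratios shifted against the brightest probe set, a comparison added after seeing the data, numbered 2. They numbered 1 with the stricter filter (beside 1.1% of all ratios), quantile normalization (1.34%), or an intensity trend with a robust prior (1.35%). With the unadjusted t-test they numbered 9 of 52, and that test passed 15.9% of all ratios. Leaving out each sample gave 1 to 3 higher and 0 to 2 lower probe sets, genes with a higher probe set from 1 to 3 and with a lower one from 0 to 2, 0 higher and 0 to 2 lower genes by the brightest probe set, and 0 to 1 shifted ratios. Log2 fold changes near 0 changed sign. Scaling on beta cell markers gave -0.0288 for Insr and -0.0689 for Pik3ca. Leaving out a sample gave Insr -0.0204 to 0.107 (negative without NC 1 or HF 22), Pik3ca -0.0503 to 0.0755 (negative without NC 1 or HF 23), Akt2 -0.161 to 0.0272 (positive without NC 2 or HF 22) and Mtor -0.0861 to 0.00411 (positive without NC 2). The causes were not tested. No paired analysis was possible because the NC and HF samples share no replicate numbers. The number of arrays limits what differences could pass.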

Other observations

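Of the 2 probe sets annotated to a member together with another gene, 1444226_at (Foxo3 and Gm38485) averaged 26.3 ± 9.84 on NC and 14.6 ± 6.59 on HF (intensity ± SD over 4 pools), for a difference of -0.86 in log2 with a standard error of 0.46 and an adjusted p of 0.311 in limma. The probe set 1453984_at (Pik3r2 and Ifi30) was at 3.55 ± 0.0223 in NC and 3.57 ± 0.0549 in HF, under the filter. On the 3 retained Eif4ebp1 probe sets NC 4 and HF 22 were the highest of their diets, and on the dim 1417563_at they stood at 35.6 and 37.3 while the 6 other samples lay between 17.0 and 21.7.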
